A study of Mus musculus with 4 samples.

Results

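The cyclin-dependent kinase (CDK) inhibitor genes were Cdkn1a, Cdkn1b and Cdkn1c of the Cip/Kip family and Cdkn2a, Cdkn2b, Cdkn2c and Cdkn2d of the Ink4 family. They were picked by name, 7 of the 20065 genes in the RNA-seq table, and all 7 passed the filter, which was 5 normalized counts on average. RNA was measured in cultured muscle stem cells (MuSC, satellite cells) from limb and trunk muscles of adult C57BL/6 mice, in 2 control and 2 Prmt5sKO libraries. Control cells were Pax7CreERT2/Prmt5+/loxP (+TAM), carried in the labels as wild type, so that they share the Cre and hold 1 floxed Prmt5 allele. Prmt5sKO cells were Pax7CreERT2/Prmt5loxP/loxP (+TAM), carried as PRMT5 KO. Prmt5 encodes an arginine methyltransferase. The study's methods describe a sort of satellite cells either by surface proteins, which leaves out haematopoietic and endothelial cells, or by a fluorescent reporter. They do not say which sort was used for these libraries. For its RNA-seq the study states that MuSC of both groups had been treated with 4-hydroxy-tamoxifen. Its methods describe this treatment as given in culture. CreERT2 is made under control of Pax7, so that it can act only in cells in which Pax7 has been active. The labels do not state whether the libraries of a group came from separate animals or cultures, and p-values then measure only the spread between these libraries. In bulk RNA, fewer cells of a type and less RNA per cell cannot be told apart.

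CDK inhibitors bind the kinases that drive the cell cycle, or the complexes of these kinases with cyclins. The Cip/Kip proteins p21, p27 and p57 act on cyclin-CDK complexes of several phases and can also help to assemble cyclin D complexes. The Ink4 proteins p15, p16, p18 and p19 bind Cdk4 and Cdk6 and keep them from cyclin D. In muscle, p21 and p57 are known for the cell cycle exit of differentiating myoblasts, and p27 for cells that rest. The comparison asked whether p21 mRNA differed between Prmt5sKO and control and how its relatives behaved beside it.

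Recovered whole counts summed to between 13240754 and 20047430 per library. In each group A is the deeper and B the shallower library, since the columns carry no replicate number, and the letters do not pair libraries across groups. Prmt5 itself (log2 fold change -3.52) held 2273 (A) and 2906 (B) normalized counts in control and 244 (A) and 202 (B) in Prmt5sKO, so the labels and the targeted gene went together. Defining markers of the labelled cells were present, Pax7 with 2570 to 3664 and Myod1 with 12153 to 15548 normalized counts over the 4 libraries. Prmt5sKO B stood apart in muscle differentiation markers. Their summed level over 8 genes was 162079 normalized counts in it, 12756 in Prmt5sKO A and 4290 to 7197 in control. Myh3 (70413) and Acta1 (60227) made up most of the sum in Prmt5sKO B. For 7 of the 8 each Prmt5sKO library was above each control library, an order that 25.2% of all genes tested had. Markers of other cells were low except for Rgs5 and Cspg4 of the pericyte list. In that list Kcnj8 had no value and Myh11 held 6.67 to 10.2 normalized counts. Rgs5 and Cspg4 made up nearly all of a sum of 1681 to 3129 in control and 4663 to 5763 in Prmt5sKO. Rgs5 had 1774 (A) and 128 (B) in control and 2367 (A) and 4163 (B) in Prmt5sKO. Endothelial markers summed to 111 and 136 in control and to 47.4 and 27.2 in Prmt5sKO, haematopoietic markers to 122 to 126 and 65.9 to 101, fibroblast markers to 65.5 to 217 and 66.7 to 79.4, and Schwann cell markers to 38.9 to 41.8 and 25.9 to 38.2. Emcn, Tie1, Ptprc and Adgre1 had no value. The libraries also differed in Xist, with 8668 normalized counts in control A and 5655 in Prmt5sKO B against 23.3 and 8.15 in the others.

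Cdkn1a encodes p21, an inhibitor of cyclin-CDK2 complexes and a textbook target of the transcription factor p53. It lies on chromosome 17 from 29090976 to 29100727 on the plus strand (ENSMUSG00000023067, GRCm38), with 5 annotated transcripts and 4 merged exon blocks. The sequences before its annotated starts are shown because p21 is the gene in question and because only 1 of them held a p53 element. RefSeq windows of 250 bases before and 50 bases after a transcript start (GRCm38.p6) were at hand for 6 of the 7 genes, 9 windows in all. Capitals mark the p53 element in the first sequence, which ends before the start at 29090979, and GC boxes (GGGCGG) in the second, which ends before the start at 29093769 and lies in an intron of the longer transcript.
Cdkn1a, first start, chr17:29090729-29090978, plus strand: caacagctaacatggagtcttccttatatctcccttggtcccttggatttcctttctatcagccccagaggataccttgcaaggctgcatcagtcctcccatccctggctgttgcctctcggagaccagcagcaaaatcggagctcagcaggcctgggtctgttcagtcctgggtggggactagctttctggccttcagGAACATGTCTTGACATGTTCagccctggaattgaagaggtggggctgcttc
Cdkn1a, second start, chr17:29093519-29093768, plus strand: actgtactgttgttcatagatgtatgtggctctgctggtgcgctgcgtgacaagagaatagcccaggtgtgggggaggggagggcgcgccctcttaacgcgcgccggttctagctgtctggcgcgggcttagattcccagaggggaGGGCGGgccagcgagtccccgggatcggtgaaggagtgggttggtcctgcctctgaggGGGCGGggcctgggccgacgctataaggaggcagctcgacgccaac

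The p53 element, 51 to 32 bases before the first start, matched the p53 consensus with 1 mismatch. Windows with such a match, on either strand, were 29 of 32851 (0.0883%), and none of the 8 other windows of these genes had one. GC boxes, also searched on both strands, were in 35.7% of all windows and in at least 1 window of each of the 6 genes. The window of Cdkn2d held 5 and that of the second Cdkn1a start 2. The windows of the first Cdkn1a start and of the Cdkn2c start at 109665372 held 0. The first window of Cdkn1a held 2 CG dinucleotides and the second 23. These matches are descriptions of letters, and the counts are per gene, so that they cannot show from which start the Cdkn1a reads came.

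Cdkn1a was the CDK inhibitor gene with the highest counts in every library and the one whose groups did not overlap. Control held 3379 (A) and 2057 (B) normalized counts, a mean of 2718 ± 935 (SD, n = 2). Prmt5sKO held 8358 (A) and 15703 (B), a mean of 12030 ± 5194 (SD, n = 2). Both Prmt5sKO libraries were above both control libraries, and the lower of them held more than the higher control library. The fitted log2 fold change was 2.13 (SE 0.38, 95% interval 1.19 to 3.06), a fold of 4.36. Without a block for paired libraries this did not pass the test over all genes (limma-voom with Benjamini-Hochberg adjustment, adjusted p = 0.214), while the unadjusted limma-voom p was 0.00141. Of the 16212 genes tested, 0.0% passed an adjusted p of 0.05 at 2-fold or more. The smallest adjusted p (0.193 in limma-voom) was that of Prmt5, at a log2 fold change of -3.52. The targeted gene itself was thus not called by this test. An unadjusted limma-voom p under 0.05 was reached by 975 genes (6.01%) with a higher and by 1126 (6.95%) with a lower level in Prmt5sKO. Among the CDK inhibitor genes 1 of 7 reached it, which was Cdkn1a.

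**Figure D1:**
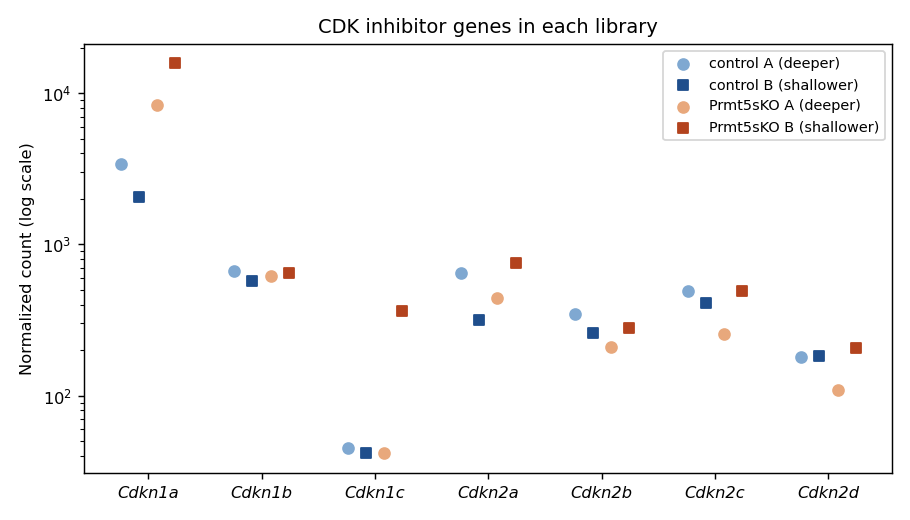
Normalized counts (log axis) of the 7 CDK inhibitor genes in each of the 4 libraries, 1 point per library, with circles for library A and squares for library B of each group. Cdkn1a stands highest in all 4 libraries, at 8358 and 15703 in Prmt5sKO against 3379 and 2057 in control, and Cdkn1c is high only in Prmt5sKO B, at 362.

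Genes with both Prmt5sKO libraries above both control libraries made up 25.2% of all genes tested, and those with both below 23.6%. Of the CDK inhibitor genes 1 of 7 was above, 0 of 7 were below and 6 overlapped. The call on Cdkn1a depended on Prmt5sKO A, the library with less of it. Without this library the log2 fold change of Cdkn1a was 2.57 with an adjusted p of 0.00733 (limma-voom, the lone library taken to vary like the other group), and 2 of the 7 genes, Cdkn1a and Cdkn1c, passed where 3.07% of all genes did. Without Prmt5sKO B, 0.342% of all genes and 0 of the 7 passed. A replicate block that pairs control A with Prmt5sKO B and control B with Prmt5sKO A, chosen after seeing the data, gave Cdkn1a a log2 fold change of 2.12 (adjusted p = 0.0181 in limma-voom), and 1 of the 7 genes passed where 2.13% of all genes did. It joins the libraries that are alike in Xist, and the part of what these libraries share in the call was not tested. The block that pairs A with A and B with B gave Cdkn1a 2.13 (adjusted p = 0.274 in limma-voom), with 0.0% of all genes passing. The groups of Cdkn1a were apart under the library size, upper-quartile and size factor scalings. The Prmt5sKO libraries differed from each other 1.88-fold in Cdkn1a and the control libraries 1.64-fold. Myog, the myogenic factor that marks the onset of differentiation, had 1436 (A) and 1189 (B) normalized counts in control and 3707 (A) and 19508 (B) in Prmt5sKO. The library with more Cdkn1a in each group thus also had more Myog, and the part of differentiation in the Cdkn1a values was not tested.

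Cdkn1b encodes p27, which holds resting cells out of the cycle and is controlled mainly through the stability of its protein. The gene (chromosome 6, 134920401 to 134925513, plus strand) was nearly level, with 668 (A) and 572 (B) normalized counts in control and 622 (A) and 644 (B) in Prmt5sKO. The Prmt5sKO values lay inside the control range. The log2 fold change was 0.03 (SE 0.22, 95% interval -0.52 to 0.57, adjusted p = 0.967 in limma-voom), so that the interval ends short of 2-fold on either side.

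Cdkn1c encodes p57, an imprinted Cip/Kip inhibitor with a role in muscle differentiation. The gene (chromosome 7, 143458339 to 143461050, minus strand) had 45.2 (A) and 41.5 (B) normalized counts in control, and 41.5 (A) and 362 (B) in Prmt5sKO. A single library was therefore high, 8.73-fold above the other of its group, while the remaining ones lay together on 32 to 56 raw counts. The log2 fold change of 1.31 had an SE of 1.27 and a 95% interval from -1.80 to 4.42 (adjusted p = 0.671 in limma-voom). It rested on that library. Without it the value was -0.07, and without Prmt5sKO A it was 3.04 (adjusted p = 0.0195 in limma-voom). The same library had the high Myog and muscle marker values given above, and their part in this result was not tested.

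Cdkn2a encodes p16, and from another first exon the unrelated Arf protein, which acts on p53 through Mdm2. The gene count (chromosome 4, 89274471 to 89294653, minus strand) sums both products. Cdkn2a had 643 (A) and 316 (B) normalized counts in control and 445 (A) and 756 (B) in Prmt5sKO. The groups overlapped, and the control libraries differed 2.03-fold between themselves. The log2 fold change was 0.32 (SE 0.43, 95% interval -0.72 to 1.36, adjusted p = 0.757 in limma-voom), and it turned to -0.16 without control B and to -0.04 without Prmt5sKO B.

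Cdkn2b encodes p15, an inhibitor of Cdk4 and Cdk6 known as a target of TGF-beta signalling, and lies 11645 bases from Cdkn2a on the same strand (chromosome 4, 89306299 to 89311039). It had 346 (A) and 258 (B) normalized counts in control and 210 (A) and 279 (B) in Prmt5sKO, with overlapping groups. The log2 fold change was -0.33 (SE 0.31, 95% interval -1.10 to 0.43, adjusted p = 0.661 in limma-voom).

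Cdkn2c encodes p18 (chromosome 4, 109660876 to 109667189, minus strand), and Cdkn2d encodes p19 of the Ink4 family (chromosome 9, 21288410 to 21291407, minus strand), which is a different protein from Arf. Cdkn2c had 493 (A) and 409 (B) normalized counts in control and 256 (A) and 489 (B) in Prmt5sKO. Cdkn2d had 180 (A) and 182 (B) in control and 108 (A) and 207 (B) in Prmt5sKO. For both genes Prmt5sKO A was the lowest of all and Prmt5sKO B was within or just above the control range. The log2 fold change of Cdkn2c was -0.39 (SE 0.37, 95% interval -1.28 to 0.51, adjusted p = 0.663 in limma-voom). That of Cdkn2d was -0.32 (SE 0.42, 95% interval -1.34 to 0.70, adjusted p = 0.753 in limma-voom). Without Prmt5sKO A both signs turned, to 0.12 and 0.20.

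**Figure D2:**
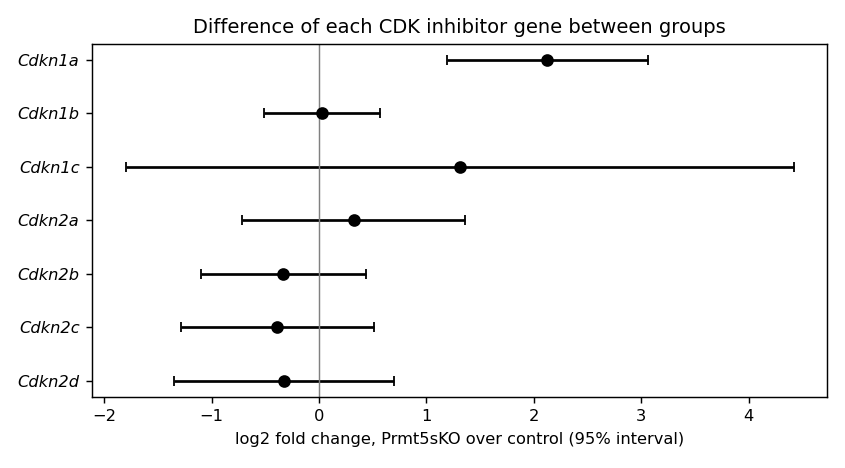
Fitted log2 fold change of each CDK inhibitor gene, Prmt5sKO over control, with its 95% interval from limma-voom. The interval of Cdkn1a, 1.19 to 3.06, is the only one of the 7 that does not include 0, and that of Cdkn1c is the widest, from -1.80 to 4.42.

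All 7 genes were higher in Prmt5sKO B than in Prmt5sKO A, by 1.04-fold for Cdkn1b to 8.73-fold for Cdkn1c. That order held for 49.0% of all genes tested. In control 6 of the 7 genes were higher in control A, all but Cdkn2d, where the share of all genes was 51.3%. Across the 7 genes the median log2 fold change was 0.03, against 0.02 over all genes tested, and 4 of the 7 values were above 0.

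For levels that can be compared between genes, counts were divided by the merged exon length, which runs from 1172 bases in Cdkn2a to 4552 in Cdkn1b, and by the scaled library size. In control the order of these levels per kilobase was Cdkn1a, Cdkn2a, Cdkn2b, Cdkn2c, Cdkn1b, Cdkn2d and Cdkn1c, and it was the same in both libraries, with no overlap between neighbours. Cdkn1a stood at 58.9 (A) and 35.9 (B), and Cdkn2a next to it at 34.0 (A) and 16.7 (B). In Prmt5sKO the first 3 genes kept their places, with Cdkn1a at 146 (A) and 274 (B), Cdkn2a at 23.5 (A) and 40.0 (B) and Cdkn2b at 9.38 (A) and 12.4 (B). Below them came Cdkn1b, Cdkn2c, Cdkn2d and Cdkn1c by mean level, and there each pair of neighbours overlapped.

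The summed level per kilobase of the 7 genes was 137 (A) and 89.7 (B) in control and 199 (A) and 366 (B) in Prmt5sKO. Most of the difference was in Cdkn1a. The other 6 genes together had 78.3 (A) and 53.9 (B) in control and 52.8 (A) and 91.6 (B) in Prmt5sKO, means of 66.1 ± 17.3 and 72.2 ± 27.4 (SD, n = 2 each), with overlapping groups. The 4 Ink4 genes together had 56.3 ± 16.3 in control and 57.5 ± 20.3 in Prmt5sKO (SD, n = 2 each). Cdkn1a made up 42.9% (A) and 40.0% (B) of the summed level in control and 73.4% (A) and 74.9% (B) in Prmt5sKO, so that within each group the share was close although the levels of Cdkn1a were not. The share of Cdkn2a was 24.8% (A) and 18.6% (B) in control and 11.9% (A) and 10.9% (B) in Prmt5sKO. Without division by length, Cdkn1a had 56.2% of the summed counts in control and 84.2% in Prmt5sKO on average.

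**Figure D3:**
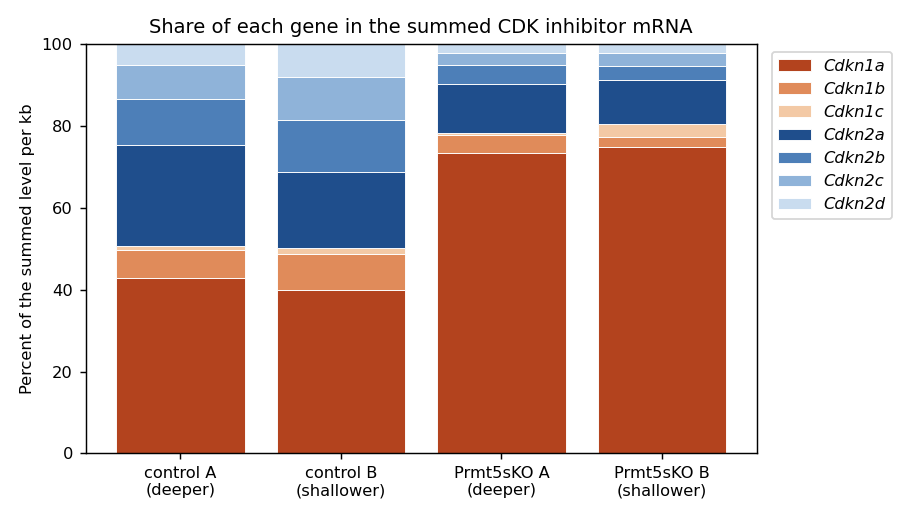
Percent of the summed level per kilobase of exon held by each CDK inhibitor gene in each library, as stacked bars that add to 100. The Cdkn1a part is 42.9% and 40.0% in the control bars and 73.4% and 74.9% in the Prmt5sKO bars.

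Ratios of Cdkn1a to each relative do not depend on how libraries were scaled. On the log2 scale and per kilobase, the ratio to Cdkn2a was 0.79 (A) and 1.10 (B) in control and 2.63 (A) and 2.77 (B) in Prmt5sKO. That to Cdkn2c was 2.37 (A) and 1.93 (B) in control and 4.63 (A) and 4.60 (B) in Prmt5sKO. To Cdkn2d it was 3.05 (A) and 2.32 (B) in control and 5.09 (A) and 5.07 (B) in Prmt5sKO. Each Prmt5sKO ratio was above each control ratio for 5 of the 6 relatives, with differences of the means from 1.76 for Cdkn2a to 2.46 for Cdkn2c. The ratio to Cdkn1c overlapped, with 5.41 (A) and 4.81 (B) in control and 6.84 (A) and 4.64 (B) in Prmt5sKO, a difference of 0.63 (exact permutation test over the 4 libraries, two-sided, p = 1.0). For the other 5 the exact two-sided permutation p was 0.333, the smallest that 2 libraries against 2 allow, so none of the 6 comparisons could pass. Taken against any tested gene in place of a relative, the ratio of Cdkn1a was likewise higher in both Prmt5sKO libraries for 86.2% of genes, so a count of 5 of 6 does not set the relatives apart.

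**Figure D4:**
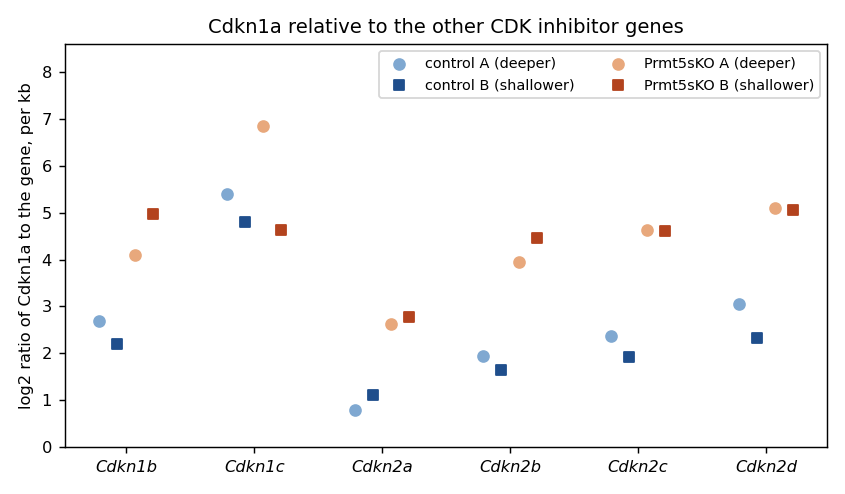
log2 ratio of Cdkn1a to each other CDK inhibitor gene, per kilobase of exon, 1 point per library, with circles for library A and squares for library B of each group. For 5 of the 6 genes both Prmt5sKO points lie above both control points, and for Cdkn1c the Prmt5sKO B point, at 4.64, is the lowest of the 4.

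Genes next to the CDK inhibitor genes in the table had varied values. On the lower side of Cdkn1a, 11796 bases away, Trp53cor1, the long non-coding RNA also called lincRNA-p21, had 55.4 (A) and 44.1 (B) normalized counts in control and 107 (A) and 383 (B) in Prmt5sKO (log2 fold change 1.92, SE 0.88, adjusted p = 0.411 in limma-voom). On the other side, Rab44 had 0 counts in both control libraries and 25 (A) and 60 (B) counts in Prmt5sKO. With each control library set to 3 counts, the Prmt5sKO mean was 10.8-fold above the control mean. That ratio leaves out the spread between the Prmt5sKO libraries, which held 18.5 (A) and 60.3 (B) normalized counts. The fitted log2 fold change of Rab44 was 5.72 (SE 1.66, adjusted p = 0.295 in limma-voom). Lockd, a long non-coding RNA 3578 bases beyond Cdkn1b, had 99.4 (A) and 175 (B) normalized counts in control and 56.3 (A) and 53.3 (B) in Prmt5sKO (log2 fold change -1.24, adjusted p = 0.363 in limma-voom), and Gpr19 on the other side of Cdkn1b had -1.43 (adjusted p = 0.353 in limma-voom). Both neighbours of Cdkn1b were thus lower in both Prmt5sKO libraries while Cdkn1b overlapped. Such a lower order held for 23.6% of all genes tested. Both neighbours of Cdkn1a were higher in both Prmt5sKO libraries, an order that 25.2% had. Beside Cdkn1c, Kcnq1 had 7.91 (A) and 12.97 (B) normalized counts in control and 20.7 (A) and 38.2 (B) in Prmt5sKO, and Nap1l4 had a log2 fold change of -0.08. Near the Ink4 genes, the log2 fold change was -0.55 for Gm12609 beyond Cdkn2b, 0.49 for 9630013D21Rik and -0.17 for Faf1 beside Cdkn2c, and -0.59 for Kri1 and 0.21 for Slc44a2 beside Cdkn2d. Gm12609 was low, at 23 to 28 counts in a library (SE 0.63), and so was 9630013D21Rik, at 5 to 19 (SE 0.98). Gm26490, a small nucleolar RNA on the far side of Cdkn2a, was too low to be tested.

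Likeness of pattern was measured as the root mean square difference of centred log2 levels over the 4 libraries among the 10304 other genes that averaged 100 normalized counts or more. The genes nearest to Cdkn1a were Cacng1, a calcium channel subunit of skeletal muscle, at 0.12, Olfml3 at 0.12, Ano5 at 0.13, Gm24289 at 0.16 and Gmpr at 0.19. Among the 3 nearest to Cdkn1c were Tnnt3, the fast skeletal troponin T, at 0.11 and Smim5 at 0.13. Tnnt3 had 901 (A) and 829 (B) normalized counts in control and 966 (A) and 8273 (B) in Prmt5sKO. Nearest to Cdkn1b were Pigk, Gabarapl1 and 9930012K11Rik, to Cdkn2a S100a10, Zdhhc24 and Ift22, to Cdkn2b D2hgdh, Klhl23 and Pbdc1, to Cdkn2c Yif1b, Polr2e and Ndufs6, and to Cdkn2d Pfkl, Arrb1 and Bbip1, all within 0.06. With 4 libraries many genes share a pattern, and the likeness is a description.

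Genes that act beside, above or below the inhibitors were taken from lists, and 0 of their members passed the adjusted test. Over all genes tested the share that passed was 0.0%. Of 15 cyclins and kinases, 9 were lower and 1 was higher in both Prmt5sKO libraries, and 5 overlapped, with a median log2 fold change of -0.45. Among all genes tested, 23.6% were lower and 25.2% higher in both. Cdk6, a kinase that the Ink4 proteins bind, had 1198 (A) and 1613 (B) normalized counts in control and 514 (A) and 601 (B) in Prmt5sKO (log2 fold change -1.33, SE 0.25, adjusted p = 0.222 in limma-voom). Ccne1, the cyclin E1 gene whose complex with Cdk2 is bound by p21 and p27, had -1.30 (adjusted p = 0.327 in limma-voom). Ccnd1, the cyclin D1 gene, overlapped, with 11961 (A) and 10072 (B) normalized counts in control and 14379 (A) and 9419 (B) in Prmt5sKO. Of the 3 pocket proteins, which the kinases phosphorylate, 2 were higher and 1 was lower in both libraries. Rb1 had 446 (A) and 502 (B) normalized counts in control and 1118 (A) and 1423 (B) in Prmt5sKO (log2 fold change 1.41, adjusted p = 0.208 in limma-voom), and Rbl1, which encodes p107, had -0.94 (adjusted p = 0.276 in limma-voom).

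Of the 15 tested transcription factors known to act on Cip/Kip genes, 3 were higher, 2 were lower and 10 overlapped, with a median of 0.04. The shares over all genes were 25.2% higher and 23.6% lower. Trp53, which encodes p53, had 3612 (A) and 3146 (B) normalized counts in control and 4159 (A) and 2901 (B) in Prmt5sKO (log2 fold change 0.04, SE 0.25, adjusted p = 0.956 in limma-voom). Myc, a repressor of Cdkn1a, had -0.76 and Foxo3 0.68. Mdm2, which encodes the ligase that removes p53 and is itself a p53 target, had 3457 (A) and 2080 (B) in control and 10628 (A) and 6640 (B) in Prmt5sKO (log2 fold change 1.64, SE 0.35, adjusted p = 0.236 in limma-voom), while Mdm4, the other gene of p53 control, overlapped. Within Prmt5sKO, Mdm2 was higher in A and Cdkn1a in B.

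Of 12 subunits of ubiquitin ligases that act on Cip/Kip proteins, 2 were higher, 5 were lower and 5 overlapped, with a median of -0.13. Dtl, the substrate receptor of the Cul4 ligase for p21 in S phase, had 1208 (A) and 1388 (B) normalized counts in control and 468 (A) and 617 (B) in Prmt5sKO (log2 fold change -1.28, adjusted p = 0.222 in limma-voom). Skp2, the receptor for p27, had 1154 (A) and 1797 (B) in control and 622 (A) and 640 (B) in Prmt5sKO (-1.19, adjusted p = 0.252 in limma-voom). Of 16 repressors of the Ink4/Arf locus, 3 were higher, 6 were lower and 7 overlapped, with a median of -0.12. The largest differences without overlap were -0.85 for Pcgf2 and -0.76 for Ezh2, the methyltransferase of Polycomb complexes. Of 5 activators of that locus, 2 were higher and 3 overlapped, Egr1 with 1.35 and Kdm6b with 0.09. Of the 8 listed genes around Cdkn1c, 5 were tested (Kcnq1ot1, Phlda2 and Slc22a18 were not analysed here), and 3 were higher, 1 was lower and 1 overlapped, with 1.38 for Kcnq1 and 1.23 for Cd81. Of all genes tested 25.2% were higher and 23.6% were lower without overlap. The lists held between 2 and 16 tested genes, and none was tested against the rest of the genes.

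**Figure D5:**
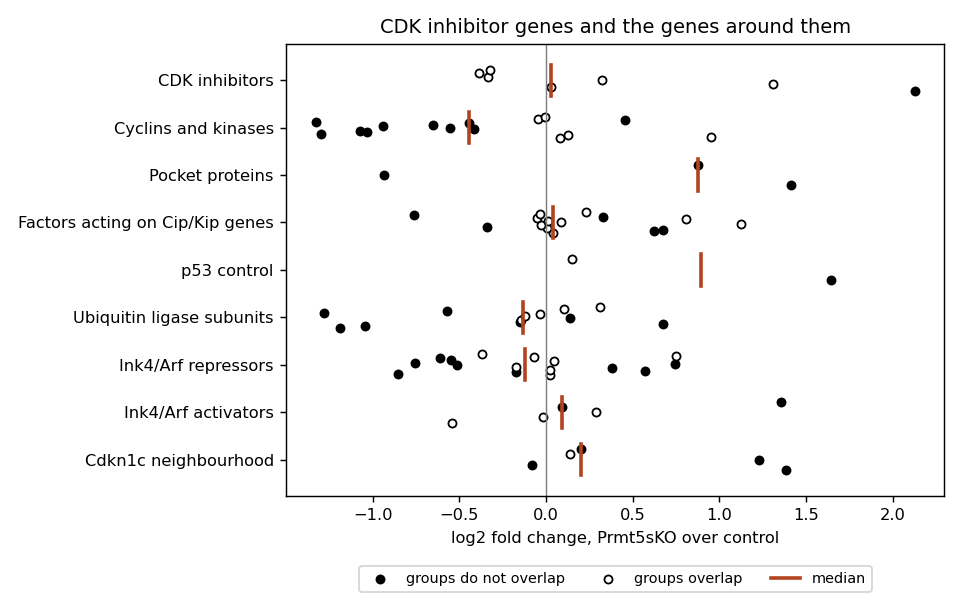
log2 fold change, Prmt5sKO over control, of the CDK inhibitor genes and of the tested genes of each list, 1 point per gene, filled where the groups did not overlap, with a bar at each median. Cdkn1a, at 2.13, lies farthest to the right, and the cyclins and kinases have their median at -0.45.

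For 5 of the 7 genes no stretch of 40 bases in their transcripts occurs in another gene of the annotation. In Cdkn1a 9.05% of such stretches occur in other genes, 989 genes in all, and the part of reads that match several genes in its counts was not tested. In Cdkn1c 26.1% are shared with the antisense gene Gm44732, which overlaps 625 exon bases on the other strand. AC167363.2 overlaps 273 exon bases of Cdkn1a, also on the other strand. Neither was analysed here, and how the counting treated strand is not given in the sources used here, so that reads from these genes and their partners cannot be told apart there. No such stretch is shared between CDK inhibitor genes.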

How the data were processed

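Total RNA of cultured MuSC was depleted of ribosomal RNA and sequenced on the Ion Torrent Proton, with 2 control and 2 Prmt5sKO libraries. The authors trimmed reads with Reaper, aligned them with STAR 2.4.0a to mm10 (GRCm38) and compared groups with DESeq2 1.62, as the submitters' processing notes and the study's methods state. The signal values deposited by the authors are group means of counts divided by size factors, so replicates were averaged before deposition. The deposited log2 fold changes, p-values and adjusted p-values are the authors' own comparison and were not used. The lowest overall mean in the table is 0.90.

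Each group mean adds whole multiples of 2 step sizes, those of its libraries. From these, the counts of each library came out whole for 100% of genes (largest relative residual 5.5e-15), with a single solution for each CDK inhibitor gene, and the recovery was tested on simulated data. Counts were scaled by TMM factors (own code, trims of 30% and 5%) and compared with limma-voom (limma 3.58.1, R 4.3.3) over the 16212 genes that averaged 5 normalized counts or more. The Benjamini-Hochberg adjustment ran over these genes, and a call needed an adjusted p of at most 0.05 and at least 2-fold. Normalized counts are counts over the TMM-scaled library size, at the mean scaled size. Ratios used an added count of 0.5 and an exact permutation test. Intervals and floors cover counting error only, or, for limma-voom, the spread between libraries.

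Symbols and coordinates came from GENCODE M21, which held 19782 of the 20065 identifiers. Promoter windows came from RefSeq (GRCm38.p6). Named genes were the CDK inhibitor genes, Prmt5, Myog, the nearest gene of the table on either side, the 5 genes most like Cdkn1a and 3 for each other gene, and from each list the 2 with the largest change without overlap, with Trp53, Rb1 and Ccnd1. A gene named by this rule is not reported here. The CDK inhibitor genes, the lists and the tests were chosen with earlier results of these data known.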

Additional observations from a re-analysis of the deposited data

How the results depend on the processing

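The CDK inhibitor genes held between 32 counts (Cdkn1c) and 15614 counts (Cdkn1a) in a library, and counting error was not compared with the spread between libraries. No call changed under upper-quartile factors, library size only (which moves the median of all genes to 0.13), the authors' size factors, no filter, limma-trend with a pseudocount of 1 or library quality weights, each with 0 genes called. The columns carry no replicate numbers. The replicate block that paired the deeper libraries gave 0 genes called and a log2 fold change of 2.13 for Cdkn1a. Across 10305 genes, the deeper-minus-shallower differences of the groups correlated at -0.36, and a crossed replicate block, chosen after seeing the data, gave 346 genes called, Cdkn1a among them at 2.12.

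Without each library in turn, 0 to 489 genes were called. The log2 fold change lay between 1.66 and 2.57 for Cdkn1a, -0.072 and 0.13 for Cdkn1b, -0.072 and 3.04 for Cdkn1c, -0.16 and 0.84 for Cdkn2a, -0.52 and -0.11 for Cdkn2b, -0.82 and 0.12 for Cdkn2c, and -0.74 and 0.20 for Cdkn2d. Between 3 and 5 of the 7 genes had groups without overlap then, since 1 library against 2 overlaps less easily. With library size only 2 had, where Cdkn1c joined Cdkn1a. The share of all genes at these settings is not given here, so these counts do not set the CDK inhibitor genes apart. Not dividing by length moved the share of Cdkn1a to 56.2% in control and 84.2% in Prmt5sKO. An added count of 1 kept each ratio's direction.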
